A study of Mus musculus with 3 samples.

Results

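Myelin structural genes encode the proteins that build and compact the myelin sheath, and 7 of them were examined here: Mbp, Mobp, Mog, Mag, Mal, Cnp and Cldn11. Their members on the array were all probe sets that the platform annotation assigns to exactly 1 gene, where that gene is one of the 7. This gave 13 probe sets of the 12488 in the deposited table, and the 7 genes stand among 8251 named genes. All 7 genes had at least 1 probe set, 4 had several, and 0 probe sets mixed a member with another gene.

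Hippocampal CA1 tissue of C57BL/6J mice, an inbred strain, was profiled on 3 replicate arrays that form 1 group, and all animals were young males. All had undergone contextual fear conditioning, a task that links a place to a foot shock. They were left for 2 min in an unfamiliar context and then given a 0.5 mA shock lasting 1 s, up to a total of 3 such rounds, and went back to the home cage 1 min after the final shock. RNA was taken 6 h after that shock. Unconditioned animals were not analysed here and the effect of training is therefore unknown. The question the data answer is how strongly each myelin transcript was measured and whether the probe sets of 1 gene gave the same picture over the 3 arrays. Nothing in the labels tells how many animals contributed to each array, and the p-values below measure the spread between these 3 samples, which may be technical.

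In the central nervous system myelin is made by oligodendrocytes, which wrap axons in many layers of membrane. Mbp, the myelin basic protein, sticks the cytoplasmic faces of the layers together, and Mobp, the myelin-associated oligodendrocyte basic protein, is a second small basic protein of compact myelin that is spliced into several isoforms. Mog lies on the outermost layer and Mag on the innermost, next to the axon. Cldn11 forms the tight junctions within the sheath, Mal is a membrane proteolipid of lipid raft sorting, and Cnp is an enzyme of the uncompacted cytoplasmic channels. In CA1 such transcripts come from oligodendrocytes among the neurons and from fibre layers at its border, and in bulk RNA a change in the number of these cells cannot be told apart from a change in RNA per cell.

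The promoters of 3 members are printed: those of Mobp and Mag because they gave the widest differences between arrays among the measured members, and that of Mog because its arrays fell in the same order as in most Mobp probe sets. Each is the RefSeq window of 300 bases on GRCm38.p6, from 250 bases before to 50 after the annotated start, at chr9:120149492-120149791 (plus strand) for Mobp, chr7:30914814-30915113 (minus strand) for Mag and chr17:37023349-37023648 (minus strand) for Mog. For Mag the first of 3 listed starts is shown. The first Cldn11 probe set shared the array order of Mog in deposited signal, though not after scaling, and the Cldn11 promoter is not printed. Capitals mark matches, on either strand, to ACAAAG, a core bound by factors of the Sox family such as Sox10, and to CTGGCAC or CTGGTAC, forms of the sequence bound by the oligodendrocyte factor Myrf.
Mobp: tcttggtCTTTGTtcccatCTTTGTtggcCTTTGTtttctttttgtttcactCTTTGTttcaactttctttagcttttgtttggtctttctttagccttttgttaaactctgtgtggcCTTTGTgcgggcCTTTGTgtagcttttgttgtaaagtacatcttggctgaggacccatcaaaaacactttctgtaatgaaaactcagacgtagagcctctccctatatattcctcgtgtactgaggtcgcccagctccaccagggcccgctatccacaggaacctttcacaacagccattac
Mag: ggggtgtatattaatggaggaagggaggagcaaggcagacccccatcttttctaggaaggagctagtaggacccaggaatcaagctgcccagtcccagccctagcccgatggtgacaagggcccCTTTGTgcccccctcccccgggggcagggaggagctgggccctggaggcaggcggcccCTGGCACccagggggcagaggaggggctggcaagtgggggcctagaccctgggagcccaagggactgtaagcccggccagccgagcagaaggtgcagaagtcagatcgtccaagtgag
Mog: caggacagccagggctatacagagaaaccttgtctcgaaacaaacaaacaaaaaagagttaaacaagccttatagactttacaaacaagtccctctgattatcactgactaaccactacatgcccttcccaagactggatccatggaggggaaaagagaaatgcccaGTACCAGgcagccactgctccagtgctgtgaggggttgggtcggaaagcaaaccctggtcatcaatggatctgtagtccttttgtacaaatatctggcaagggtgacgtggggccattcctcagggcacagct

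The Mobp window held 6 matches to ACAAAG, all in the orientation CTTTGT, all before the annotated start and none overlapping another. At least 1 match was present in 18.7% of the 32851 promoter windows of the same length, and 6 or more in 0.00304% of them, which is the Mobp window alone. The printed Mag window held 1 match to ACAAAG and 1 to CTGGCAC, which 5.01% of windows held. Mog held 1 match to CTGGTAC, which 2.24% held. Of the other members, Cnp held 1 ACAAAG and 1 CTGGCAC, and Mal and Cldn11 held 0 of these 3 motifs. TATAAA and ACAATG were found in 0 windows of the 6 members with a table entry (all but Mbp), against 13.6% and 12.6% of all windows, and GGGCGG was found once in Cldn11 and 2 times in Cnp, against 35.7%. The motifs were chosen after the sequences were seen, and a match describes the letters only.

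Probe sets with a mean deposited signal over 175, the median of all values in the table, were taken as measured. By this rule 10 of the 13 probe sets and 6 of the 7 genes were measured, and those 10 were above 175 on each of the 3 arrays. The 3 below it were the only Cnp probe set and the second probe sets of Mag and Cldn11. Signals of different probe sets are not comparable as amounts of transcript, so levels are given for each probe set alone.

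**Figure D1:**
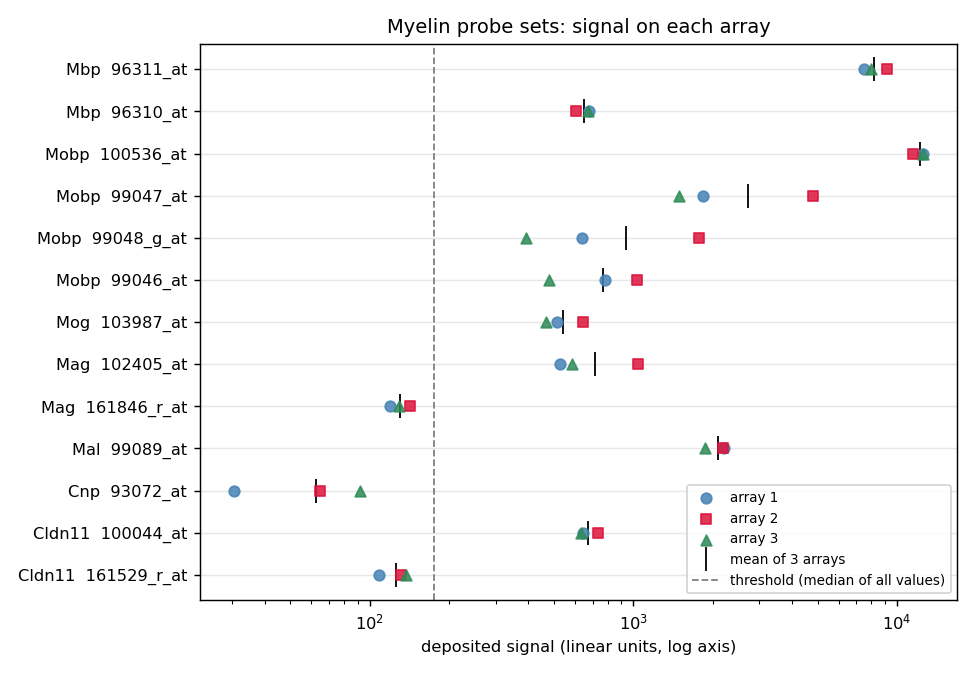
Deposited signal of the 13 myelin probe sets on arrays 1, 2 and 3 (points; log axis) with the mean of the 3 arrays (vertical bars) and the threshold of 175 (dashed line). The first Mag probe set and all Mobp probe sets but the brightest have array 2 set off to the right, while the brightest Mobp probe set has its 3 points within 11531 to 12547.

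Both basic proteins of compact myelin gave high signals. The brighter Mbp probe set (96311_at) gave 7476, 9186 and 7957 on arrays 1, 2 and 3, a mean of 8206 ± 882 (SD, n = 3), and the second (96310_at) gave 679.9, 604 and 674, a mean of 653 ± 42.5. The arrays lay close together in both, with log2 ranges of 0.29 and 0.21. They were ordered differently, since array 2 was highest in the first and lowest in the second.

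Mobp had 4 probe sets, with a log2 range of 0.17 in the brightest and of 1.06 to 2.14 in the others. The brightest (100536_at) gave 12547, 11531 and 12529.9, a mean of 12202 ± 582 and a log2 range of 0.17, which 90.5% of the measured probe sets exceeded. Its arrays were thus nearly level. The second (99047_at) gave 1843, 4814 and 1496, a mean of 2718 ± 1824. The third (99048_g_at) gave 638, 1776 and 390.3, a mean of 935 ± 739. The fourth (99046_at) gave 779.7, 1034 and 479, a mean of 764 ± 278. In these 3 probe sets array 2 was highest and array 3 lowest, whereas array 2 was lowest in the brightest. All 3 less bright probe sets carry consecutive numbers. The second and the third are annotated to the same GenBank record, so they share a target and are not independent readings. Whether the fourth is independent of them was not tested.

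The size of the Mobp differences was set against the spread of all probe sets. After scaling the arrays to a common median, raising signals under 47.5 to that value and taking log2, the second Mobp probe set stood 1.51 above the mean of arrays 1 and 3 on array 2, the third 1.80 and the fourth 0.73, while the brightest stood at -0.15. Their SDs were 3.78, 4.18 and 2.03 times the typical SD that limma fitted for their signal, against 0.43 times for the brightest. Only 217 of 6218 measured probe sets had a larger log2 range than the 1.64 of the second, and 91 a larger one than the 2.14 of the third. In limma's variance test against that typical spread, Benjamini-Hochberg adjusted over all 6218, p was 0.559 for the second, 0.515 for the third, 0.955 for the fourth and 0.993 for the brightest. None of the 4 therefore passed, and the unadjusted p of the second and the third was 0.0041 and 0.0024.

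Mag, an adhesion protein that myelin presents to the axon, was the other member with a wide difference. Its first probe set (102405_at) gave 525, 1037 and 583 on arrays 1, 2 and 3, a mean of 715 ± 280.2. Array 2 stood 0.88 above the mean of the others on the log2 scale, 1.97-fold above array 1 and 1.78-fold above array 3 in deposited signal. The SD of the 3 arrays was 1.93 times the typical SD, and the limma adjusted p was 0.968. The second Mag probe set (161846_r_at), under threshold, gave 119.5, 142.5 and 129.7, a mean of 131 ± 11.5. The order of the arrays was the same in both, 2 above 3 above 1, but the second differed by only 0.25 on the log2 scale.

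The other surface and junction genes varied little. Mog (103987_at) gave 514, 641 and 464, a mean of 540.0 ± 91.3 and a log2 range of 0.42, with array 2 highest. The first Cldn11 probe set (100044_at) gave 645, 735 and 632, a mean of 671 ± 55.7, also highest on array 2. Arrays 1 and 3 were nearly equal there, and the log2 range was 0.18. The second Cldn11 probe set (161529_r_at), under threshold, gave 109, 132 and 137, a mean of 126 ± 15.1, with array 3 highest and array 1 lowest. Mal (99089_at) gave 2201, 2191 and 1874, a mean of 2088 ± 186 and a log2 range of 0.19, with arrays 1 and 2 level and array 3 lowest. Each of these 3 measured probe sets had an SD below the typical SD for its signal, and their adjusted p in limma lay between 0.988 and 0.997.

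Cnp, whose product is abundant in myelin, was measured poorly. Its single probe set (93072_at) gave 30.6, 64.8 and 91.6, a mean of 62.3 ± 30.6, under threshold on every array. On array 1 the signal was below the floor of 47.5, so its order among arrays rests on weak values. A low signal from 1 probe set does not show that the transcript was scarce, and the level of Cnp cannot be read from these arrays.

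**Figure D2:**
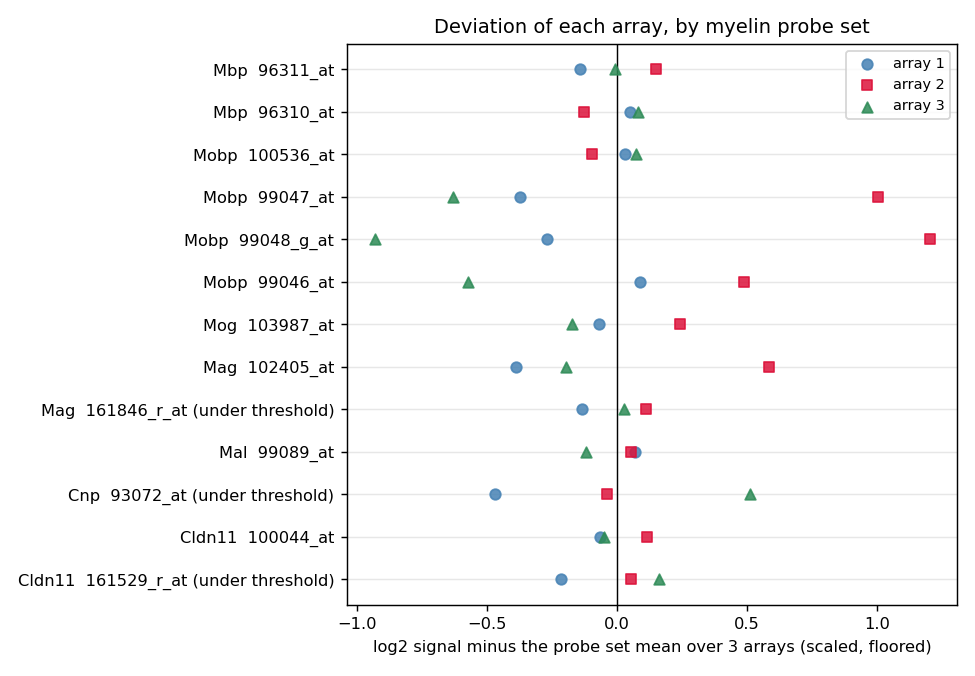
Deviation of each array from the probe set's own mean, in log2 units after scaling and flooring, for the 13 myelin probe sets. Array 2 lies to the right for 3 Mobp probe sets and the first Mag probe set, but to the left for the brightest Mobp and the second Mbp probe set.

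In deposited signal array 2 was highest for 7 of the 10 measured probe sets, array 1 for 3 and array 3 for 0, and array 3 was lowest for 6. Over all measured probe sets, also in deposited signal, array 2 was highest for 35.4%, array 1 for 32.1% and array 3 for 32.5%, and array 3 was lowest for 33%. Close values changed order on scaling. On the scaled log2 values array 3 was above array 1 for the brightest Mobp (13.64 against 13.60), the second Mbp (9.43 against 9.40) and the first Cldn11 probe set (9.34 against 9.32). Array 3 was then highest for the first 2 of these, and array 1 lowest for the last. The 7 come from 5 genes, since 3 are Mobp probe sets. More than 2-fold lay between the highest and lowest array for 3 of 10, all of Mobp, against 12.1% of all measured probe sets, and array 2 stood more than 2-fold above the mean of the others for 2 of 10, against 3.96%. In the limma variance test 0 of 10 passed with p adjusted over all probe sets, against 0.0161% of all, and 2 of 10 had an unadjusted p under 0.05, against 5.21%. Without array 2 the number more than 2-fold apart was 0 and the number at an unadjusted p under 0.05 was 0. Without array 3 the second and the third Mobp probe sets passed, with limma adjusted p of 0.044 and 0.047 on the 2 arrays left. The shares over all measured probe sets were not counted with an array left out, so these counts have no background beside them.

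Taking each measured gene at its brightest probe set, the 6 genes had a median log2 difference from the mean of the other arrays of -0.10 for array 1, 0.20 for array 2 and -0.13 for array 3. The same medians over all 4876 measured genes were 0.0039, -0.065 and 0.060. On array 2, 5 of the 6 genes stood above the mean of the others, all but Mobp, against 44.5% of all measured genes. The median SD of the 6 genes was 0.13, against 0.25 over all measured genes. At these probe sets the SD between arrays was above the typical SD for Mag, at 1.93 times. It was below the typical SD for Mbp, Mobp, Mog, Mal and Cldn11, at 0.38 to 0.78 times.

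**Figure D3:**
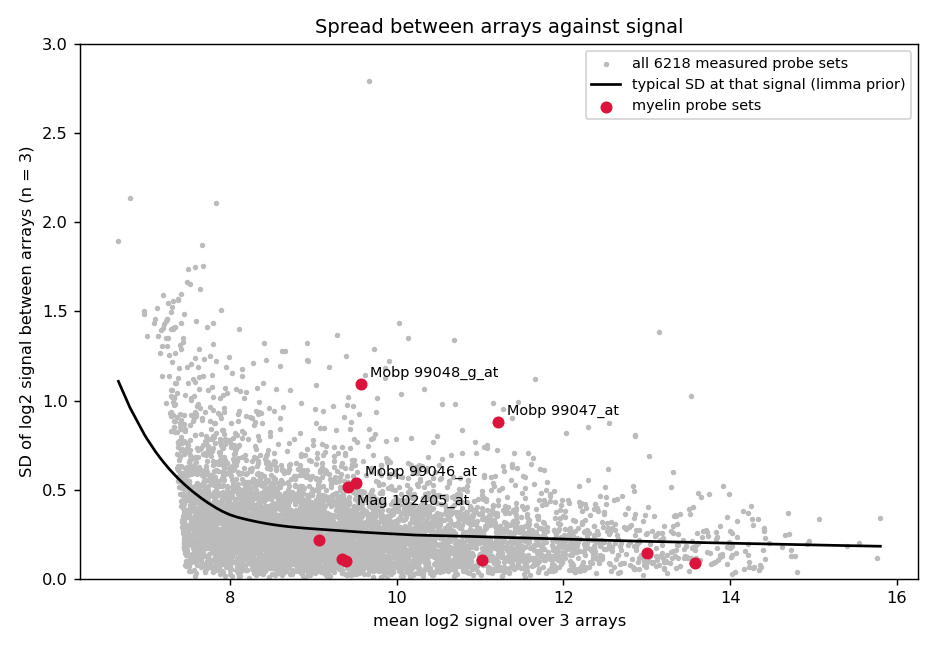
SD of log2 signal between the 3 arrays against mean log2 signal for all 6218 measured probe sets (grey), with the typical SD limma fitted at each signal (line) and the 10 measured myelin probe sets (red). The second and the third Mobp probe sets lie far above the line at SDs of 0.88 and 1.09, and 6 of the 10 lie below it.

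Probe sets of the same gene could be compared in 9 pairs, of which 4 put the 3 arrays in the same order: the 3 pairs among the less bright Mobp probe sets and the pair of Mag. In deposited signal, the 3 pairs that join the brightest Mobp probe set to another, the Mbp pair and the Cldn11 pair differed both in their highest and in their lowest array. Of the 7 pairs with both probe sets measured, 3 shared the order, against 20.6% of 862 such pairs over all genes, and 3 shared the highest array, against 34.9%. These 3 are the pairs among the less bright Mobp probe sets, where 2 agreements fix the third. They come from 1 gene and are not separate agreements to set against those shares. A brightest probe set within 2-fold beside another more than 2-fold apart, as in Mobp, was present in 21.6% of the 675 genes with several measured probe sets.

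Values of RNA quality and of other tissue are given here beside the Mobp and Mag differences. The ratio of 3' to 5' signal of Gapdh, which rises as labelled product falls short of the 5' end, was 3.99, 1.21 and 3.94 on arrays 1, 2 and 3. The 3' signal itself was 37342, 33952 and 38102, whereas the 5' signal was 9368, 28001 and 9670.0, so for Gapdh array 2 stood apart at the 5' end and not at the 3' end. The ratio of Actb was 2.57, 1.86 and 3.50. Its 3' signal was 41349, 31982 and 19166 and its 5' signal 16086.5, 17218 and 5472, so for Actb array 3 was low at both ends. The summed signal of 6 choroid plexus and ependyma markers was 3879, 7580.2 and 2360.1, and that of 6 thalamic markers 3393, 5625 and 2919, both highest on array 2 and lowest on array 3, as for the 3 Mobp probe sets. Most of the thalamic difference lay in Cplx1, and the other 5 markers summed to 1977, 2168 and 1795. Among those 5, Tcf7l2, also listed as a lineage factor below, gave 282, 664 and 518, while Prkcd gave 593, 493 and 448. Of the 6 thalamic markers 3 were highest on array 2, 2 on array 1 and 1 on array 3, so the sum does not describe each marker. Most of the choroid plexus and ependyma difference lay in Ttr, the transthyretin gene of the choroid plexus, at 1334, 4257 and 94.2. Ttr was also the only 1 of the 6218 measured probe sets past the limma variance test, at an adjusted p of 0.049. The first Mag probe set was also highest on array 2 but lowest on array 1, and the brightest Mobp probe set was lowest on array 2. The part of any of these in the Mobp and Mag values was not tested.

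Other oligodendrocyte genes were taken at their brightest probe set, where 0 of the 6 measured myelin genes were more than 2-fold apart or had an unadjusted p under 0.05 in limma. Over all measured probe sets 12.1% were more than 2-fold apart and 5.21% had an unadjusted p under 0.05. These shares are the background for the counts of both kinds in this and the next 2 paragraphs, and such short lists allow few calls. Of 35 listed genes 18 had a probe set and 14 were measured. In limma 0 of the 14 passed, 0 had an unadjusted p under 0.05 and 0 were more than 2-fold apart. On array 2, 9 of the 14 stood higher than the mean of the others, against 44.5% of all measured genes, with a median log2 difference of 0.11. Gsn, the actin-severing protein gelsolin, had the widest range, 0.74, at 742.5, 1008 and 584, and so shared the array order of the 3 Mobp probe sets. Ugt8a, the enzyme of galactolipid synthesis, and Gjb1, a gap junction gene, were under threshold at 130.4 ± 9.65 and 86.2 ± 5.05. The summed signal of the 18 genes was 34444, 41013 and 33493. Most of the difference on array 2 lay in Fth1, at 13122, 17566 and 13430. Of the 14 measured genes 7 were highest on array 2, 4 on array 1 and 3 on array 3. Of 4 lineage factors with a probe set all were measured, with 0 past the limma test adjusted over all probe sets and 1, Tcf7l2, at an unadjusted p under 0.05. Sox10, a transcription factor that oligodendrocytes need to mature, gave 979, 882 and 962, Nkx2-2 gave 166.5, 214 and 187 and Nkx6-2 gave 272, 229 and 193. Tcf7l2, a Wnt pathway factor that thalamic neurons also express, was the 1 more than 2-fold apart, at 282, 664 and 518, a log2 range of 1.23.

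Precursor markers were not tested against the myelin genes. Of 4 measured genes 1, Bmp4, was higher on array 2 than the mean of the others, with a median log2 difference of -0.37, and 0 passed the limma test, adjusted or not. Pdgfra, the growth factor receptor that marks oligodendrocyte precursors, gave 999.6, 824.5 and 896, the phosphatase gene Ptprz1 1435, 1015.5 and 1431, and the proteoglycan gene Vcan 201.5, 167 and 271. The second measured Ptprz1 probe set was highest on array 2, at 693, 734 and 419. Markers of peripheral myelin were low: Pmp22, at 174 ± 17.6, and Egr2, at 124 ± 32.6, were the 2 with a probe set and 0 was measured.

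Axonal partners and lipid enzymes of myelin were described in the same way, with no test against the myelin genes. At their brightest probe sets, all 4 measured axonal and nodal genes were highest on array 1, with a median log2 difference of 0.49. Among them Ank3, the ankyrin of the node and initial segment, gave 5605, 3251 and 3558 and the adhesion gene Cntn1 gave 3796, 3269 and 2160.2, while Cntnap1, the paranodal partner, was under threshold on average at 37.2, 160.3 and 302. The second probe sets of Ank3 and of the potassium channel gene Kcnab2, the latter named after its values were seen, were highest on other arrays, at 4156, 2636 and 4946 and at 2228, 4514.5 and 1907. Of 7 measured enzymes of cholesterol synthesis, a lipid that myelin needs in bulk, 0 were highest on array 1, and the median differences were -0.33, 0.12 and 0.25 on arrays 1, 2 and 3. Hmgcs1 gave 1270.5, 1279 and 1865, Sqle 872, 1225 and 1047, Fdft1 881, 1495 and 982, and Fdps, with the widest range of 0.86, gave 703, 1192 and 636.5. The second Fdps probe set, named after its values were seen, gave 372, 1522 and 347.1, with a limma adjusted p of 0.515, in the array order of the less bright Mobp probe sets. In both lists 0 genes at their brightest probe set had an unadjusted p under 0.05 in limma.

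**Figure D4:**
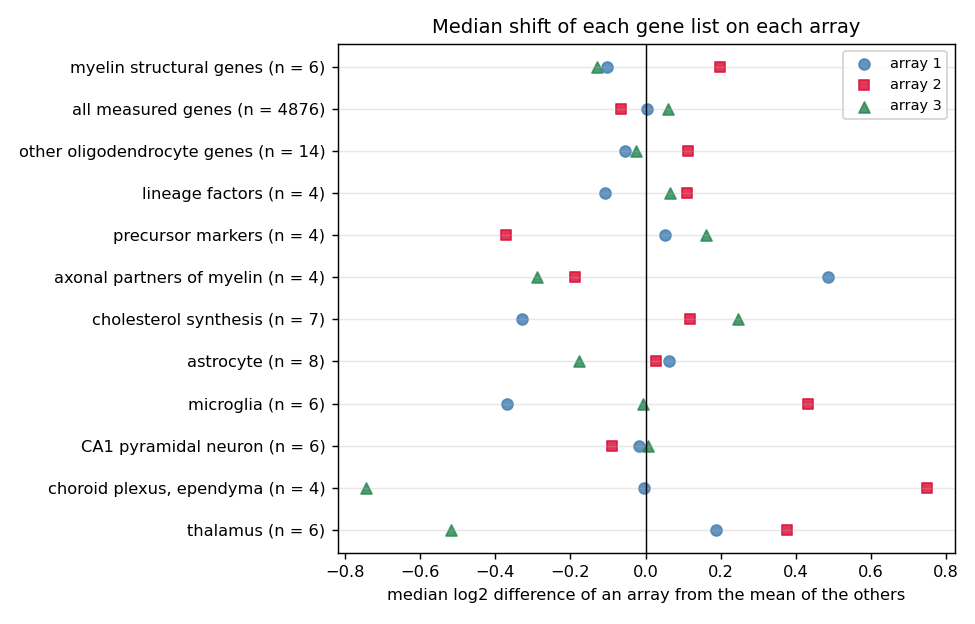
Median over measured genes, each at its brightest probe set, of the log2 difference between an array and the mean of the others, for the myelin genes, all measured genes and 10 other lists (n is the number of measured genes). Myelin genes stay within -0.13 to 0.20, while choroid plexus and ependyma markers reach 0.75 on array 2 and -0.74 on array 3.

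For the remaining cell types, the difference from the myelin genes was not tested. The median log2 differences on arrays 1, 2 and 3 were 0.062, 0.027 and -0.18 for 8 astrocyte markers, -0.37, 0.43 and -0.0080 for 6 microglial markers, and -0.018, -0.090 and 0.0076 for 6 CA1 pyramidal markers. They were 0.19, 0.38 and -0.52 for 6 thalamic markers and -0.0036, 0.75 and -0.74 for 4 choroid plexus and ependyma markers. Signals over 175 were recorded throughout for all 6 CA1 markers represented, among them Wfs1, the wolframin gene, at 2522 ± 66.0. This held for all 8 astrocyte markers and 5 of the 6 thalamic markers represented as well, so it does not identify the tissue.

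The genes nearest to the myelin pattern were found by the Euclidean distance between centred log2 profiles over the 3 arrays, among 4870 other genes. The mean profile of the 6 members was nearest to Gpr27, Psap, 2610507B11Rik, Nfib and Hdac6, at distances from 0.011 to 0.016. For Psap, the prosaposin gene, the signals were 5055, 6058 and 4944. The second Mobp probe set was nearest to Cplx1, Josd2, Atp6v0a1, Cd99 and Ensa, at distances from 0.070 to 0.16. Cplx1, the complexin 1 gene of synaptic vesicle fusion and a member of the thalamic list above, gave 1417, 3458 and 1124, and its log2 range of 1.57 was close to the 1.64 of that Mobp probe set. With 3 arrays many genes share any profile, and nearness describes the order and size of 3 values only.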

How the data were processed

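Total RNA of 3 CA1 samples was measured on 3 arrays of the Affymetrix type. The deposited intensity is 1 linear signal per probe set and array; the authors' program, scaling and background correction are unstated in the labels. Each array's mean after trimming 2% of probe sets at both ends was 500.3, so the arrays were already on a common scale. The median signal was 176, 177 and 171, and 6 to 18 probe sets per pair of arrays had identical values. The number of arrays limits the precision.

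Symbols came from the platform annotation, brought up to date by Entrez number in RefSeq's GRCm38.p6 table. Among the 12488 probe sets, 66 were controls, 10833 had 1 gene, 396 had several and 1193 were unnamed there. Arrays were scaled to a common median over measured probe sets, by factors of 0.991, 0.987 and 1.02, floored at 47.5, the 25th percentile of all values, and log2-transformed. The variance of each of 6218 measured probe sets was tested against a robust intensity-dependent prior (limma 3.58.1 in R 4.3.3, winsorised at 0.05 and 0.1, upper-tail F, Benjamini-Hochberg threshold 0.05). The test was run on simulated data whose variances were drawn from that same prior, so the run cannot show whether the prior holds for these arrays. The genes named are every member probe set, the first 3 listed genes with a probe set and the widest-ranging measured gene of the oligodendrocyte, precursor, peripheral myelin, axonal and cholesterol lists, and the 5 nearest profiles; other lists are given by counts, and Ttr and Wfs1 stand for theirs. Genes outside this rule, among them Bmp4, Kcnab2 and the second probe sets of listed genes, and the thalamic sum without Cplx1 were chosen after the values were seen. The members and lists were chosen with earlier results of these data known. Alternatives were no scaling, quantile normalization, other floors and thresholds, a non-robust prior, plain-suffix probe sets, averaging of probe sets and leaving out each array.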

Additional observations from a re-analysis of the deposited data

How the results depend on the processing

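No paired analysis was possible because the 3 arrays form 1 group. The number of myelin probe sets past the variance test was 0 under 10 of 11 alternatives, and leaving out each array in turn gave 0 to 2, the 2 being Mobp probe sets without array 3. Shares over all measured probe sets were not counted under the alternatives. The number at an unadjusted p under 0.05 was 0 with no threshold on the signal, and 0 to 3 when an array was left out. The number more than 2-fold apart ranged from 0 to 4, and was 0 without array 2. The order shared within 4 of 9 same-gene pairs was shared by 4 to 6 pairs under the 10 alternatives tried. It was 4 wherever all 3 arrays were kept. The higher counts were 6 without array 2 and 5 without array 3. Only 2 arrays are ordered there, which is easier to share, so those counts are not comparable with the 4. The median shift on array 2 stayed between 0.17 and 0.27 and that on array 1 between -0.24 and -0.031, while the shift on array 3 ran from -0.22 to 0.031 and was above 0 without array 2. The median mean signal over the 13 probe sets, 715, ranged from 629 to 781. The adjusted p in limma ranged from 0.044 to 1 for the second Mobp probe set, from 0.047 to 1 for the third and from 0.534 to 1 for the first Mag probe set. The cause of these changes was not tested beyond the smaller number of arrays or larger number of probe sets. The 3 arrays, without a control group, limit every statement to the spread between replicates, and probe sets under threshold carry too little signal to order the arrays.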
